A study of Cricetulus griseus with 4 samples.

Results

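The genes described here encode the matrix metalloproteinases (MMPs), the ADAM and ADAMTS proteases, the ADAMTS-like proteins and the tissue inhibitors of metalloproteinases (TIMPs) of CHO-K1, an established cell line from Chinese hamster ovary. They were chosen by symbol: a number after Mmp, Adam, Adamts or Adamtsl, or Timp1 to Timp4. The rule found 65 genes on 67 rows of the deposited table, among 20754 genes on 21266 rows. The rule uses names and no measured value, but the gene families were picked for description with earlier results of these data known. Poly(A) RNA was sequenced from 4 cultures, 1 library each. All were plated for 24 hr and then kept for 24 hr in lipid-depleted serum (5%) with 50 µM compactin, a statin, and 50 µM mevalonate. One culture had only the solvent DMSO added and served as control. Another had 25-hydroxyvitamin D3. The remaining cultures had a compound each, named by its action: a selective SREBP inhibitor in one, and in the other a selective VDR activator. SREBPs are the transcription factors of sterol and fatty acid synthesis, and VDR is the vitamin D receptor. The study separates these activities of 25-hydroxyvitamin D3, but the labels give no dose, so the values of the treated libraries are set side by side and ordered as measured, with no comparison of one compound with another.

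MMPs are zinc proteases that cut collagens, elastin, laminins and other matrix proteins, and most are made as inactive precursors. ADAMs are membrane proteins, many of which release growth factors, cytokine receptors and Notch from the cell surface. ADAMTS proteins are secreted and cut proteoglycans, procollagens and related matrix proteins, and ADAMTS-like proteins share their accessory domains but have no protease domain. TIMPs bind the active site of MMPs and of several ADAM and ADAMTS proteases. In fibroblast-like cells the balance of these proteins sets how fast the pericellular matrix turns over.

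Total counts were 21335614 to 23653262 per library. The share of counts on mitochondrial-encoded genes was 0.753% with 25-hydroxyvitamin D3 and 5.25 to 6.81% in the other libraries. Of 8 mesenchymal markers 6 were expressed, with a summed level of 6118 CPM in DMSO, 2276 with 25-hydroxyvitamin D3, 4942 with the SREBP inhibitor and 3871 with the VDR activator, while Thy1 had no count. Of these markers Cav1, Sparc, Fn1 and Col1a1 also stand in the partner and substrate lists described last. Of the 4 epithelial markers in the table none was expressed, with summed levels of 0.818 to 1.77 CPM and Krt18 at 0. Leukocyte markers summed to 4.87 to 14.9 CPM, with Ptprc and Cd3e at 0 and nearly all of it from the lysosomal gene Cd68. Endothelial markers summed to 0.540 to 2.07 CPM, and 1 of 4 was expressed, Tek. Tek was at 1.84 CPM in DMSO and 0.343 with 25-hydroxyvitamin D3, lower by the 2-fold limit used below. Granulosa cell markers summed to 2.99 to 6.42 CPM. Of the 3 found, Inha and Amh were expressed, at means of 3.53 and 1.44 CPM, and the gonadotropin receptor gene Fshr was at 0. Differences between libraries have no replicate check, no test across conditions was possible, and intervals (95%) cover counting error only. In such bulk RNA, fewer cells of a kind and less RNA per cell cannot be told apart.

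CHO-K1 cells expressed a minority of these genes, and the expressed ones came from every class. With a mean of at least 1 CPM (counts per 1000000 of the effective library size) over the 4 libraries as the limit, 28 of the 65 were expressed, 22 of them at 10 CPM or more and 10 at 100 CPM or more. These were 2 of 4 TIMPs, 7 of 14 secreted MMPs, 4 of 7 membrane MMPs, 8 of 18 ADAMs, 5 of 19 ADAMTS genes and 2 of 3 ADAMTS-like genes. By the same limit 11233 of all 20754 genes were expressed. Of the 65, another 20 had at least 1 count but a mean under 1 CPM, and 17 had no count in any library. Among the 37 not expressed, 33 had at most 5 counts in every library, and the other 4, Mmp13, Mmp25, Adamts15 and Adamtsl1, reached at most 38 counts.

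The genes with no count were Timp3, Mmp1, Mmp7, Mmp16, Mmp20, Mmp27, Adam2, Adam7, Adam11, Adam18, Adam28, Adamts8, Adamts9, Adamts16, Adamts17, Adamts18 and Adamts19. The exact Poisson interval of a count of 0 reaches up to 0.151 to 0.181 CPM, depending on the library. They include the interstitial collagenase Mmp1, the matrilysin Mmp7, the enamel protease Mmp20, and Adam2, Adam7 and Adam18, which are known from the male reproductive tract of the mouse. Timp3, the TIMP that is known to bind the matrix and to inhibit ADAM17, was among them. Mmp2, the gelatinase that many fibroblasts secrete in quantity, had 1 count in DMSO, 2 with 25-hydroxyvitamin D3, 2 with the SREBP inhibitor and 1 with the VDR activator. Timp4 had 1 count with 25-hydroxyvitamin D3, 1 with the VDR activator and none in the remaining libraries.

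**Figure D1:**
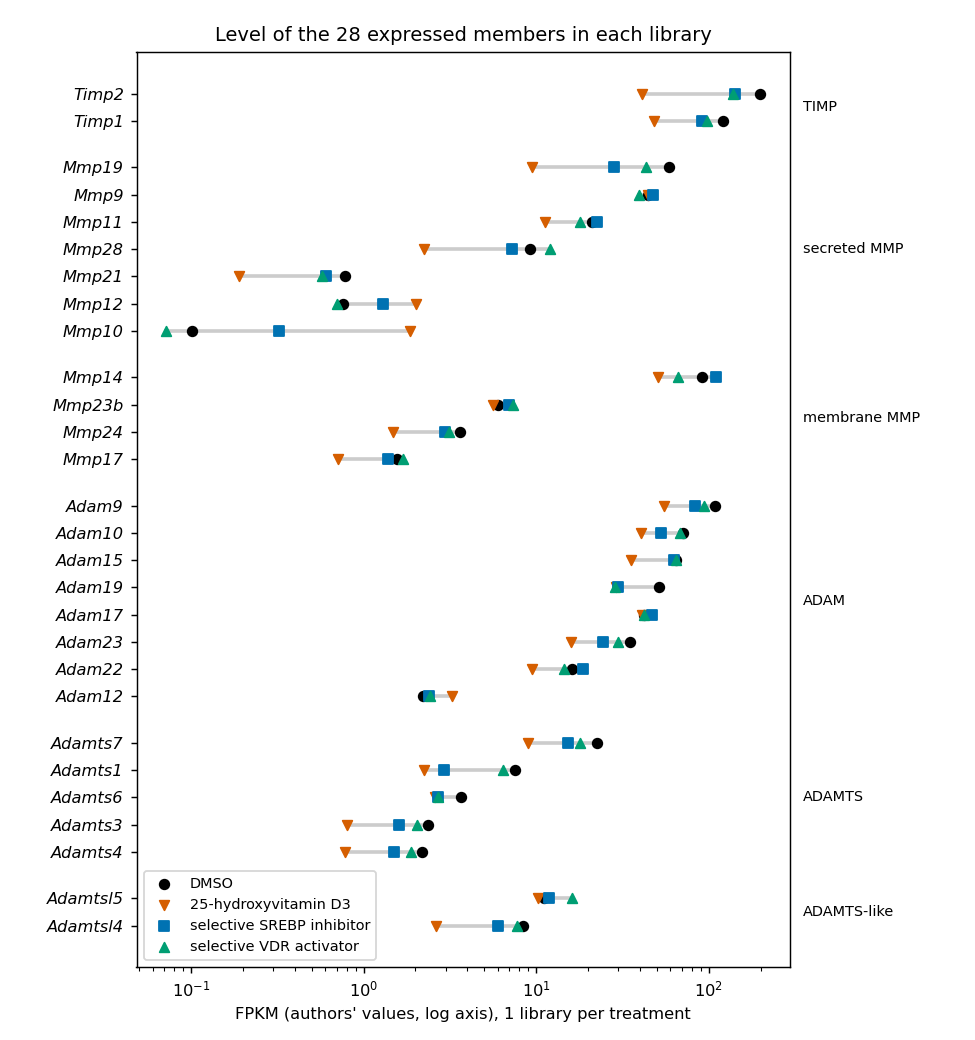
Level of the 28 expressed genes in each of the 4 libraries, as the authors' FPKM on a log axis, grouped by class, with 1 point per library and a grey line over the range. With 25-hydroxyvitamin D3 (triangles pointing down) 21 of the 28, or 75.0%, had their lowest CPM of the 4 libraries, against 40.7% of all expressed genes. CPM and the plotted FPKM are scaled differently, and in FPKM Adam17 and Adamts6 were lowest there too.

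Per length, in the authors' FPKM (fragments per kilobase of transcript and 1000000 fragments), the inhibitors stood at the top in the control. In DMSO Timp2 was at 199 FPKM and Timp1 at 121, followed by Adam9 at 109.6, Mmp14 at 91.5, Adam10 at 71.2, Adam15 at 64.8, Mmp19 at 58.9, Adam19 at 51.3, Mmp9 at 44.6 and Adam17 at 42.2. These are also the 10 genes with the highest mean FPKM over the libraries. The summed FPKM in DMSO was 392 for the ADAMs, 319 for the TIMPs, 136 for secreted MMPs, 103 for membrane MMPs, 38.8 for ADAMTS and 19.6 for ADAMTS-like genes. With 25-hydroxyvitamin D3 the sums were 230.0, 89.3, 72.5, 58.5, 15.4 and 13.0, in the same order. With the SREBP inhibitor they were 322, 233, 108.1, 121.6, 24.2 and 17.9, and with the VDR activator 344, 238, 114, 79.0, 31.3 and 24.0. Every class was lowest with 25-hydroxyvitamin D3, and the TIMP sum was the one that differed most from DMSO there.

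25-hydroxyvitamin D3 against DMSO was the comparison with the most of these genes past the 2-fold limit, and most of those were lower. The limit for a 2-fold difference was 1 on the log2(CPM + 1) scale. A gene also had to reach 1 CPM and 10 counts in DMSO or in the treated library, a minimum that 32 of the 65 met. Of these 32, 13 were at least 2-fold lower, or 40.6%, against 12.2% of all 11482 genes that met it. On the other side 2 were at least 2-fold higher, or 6.25%, against 11.6% of all genes, and together 23.8% of all genes passed the limit. The median difference of the 28 expressed genes was -0.83 log2, against 0.05 for all 11233 expressed genes, and 23 of the 28, or 82.1%, were below 0, against 47.7%. By class the lower ones were 2 of 2 TIMPs, 3 of 8 secreted MMPs, 1 of 5 membrane MMPs, 1 of 8 ADAMs, 5 of 6 ADAMTS genes and 1 of 3 ADAMTS-like genes, and both higher ones were secreted MMPs. The mitochondrial share and the mesenchymal marker level given above were lowest in the same library, and their part in these differences was not tested. With libraries scaled to the total without mitochondrial-encoded genes, 15 were lower and 1 was higher, and with a pseudocount of 5 CPM 8 were lower and 0 higher. Of the called genes, Mmp21 and Adamts15 met the minimum through DMSO alone. Mmp10 met it through 25-hydroxyvitamin D3 alone, and that library also set its place among the 28. With a minimum of 5 CPM 11 were lower and 0 higher.

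**Figure D2:**
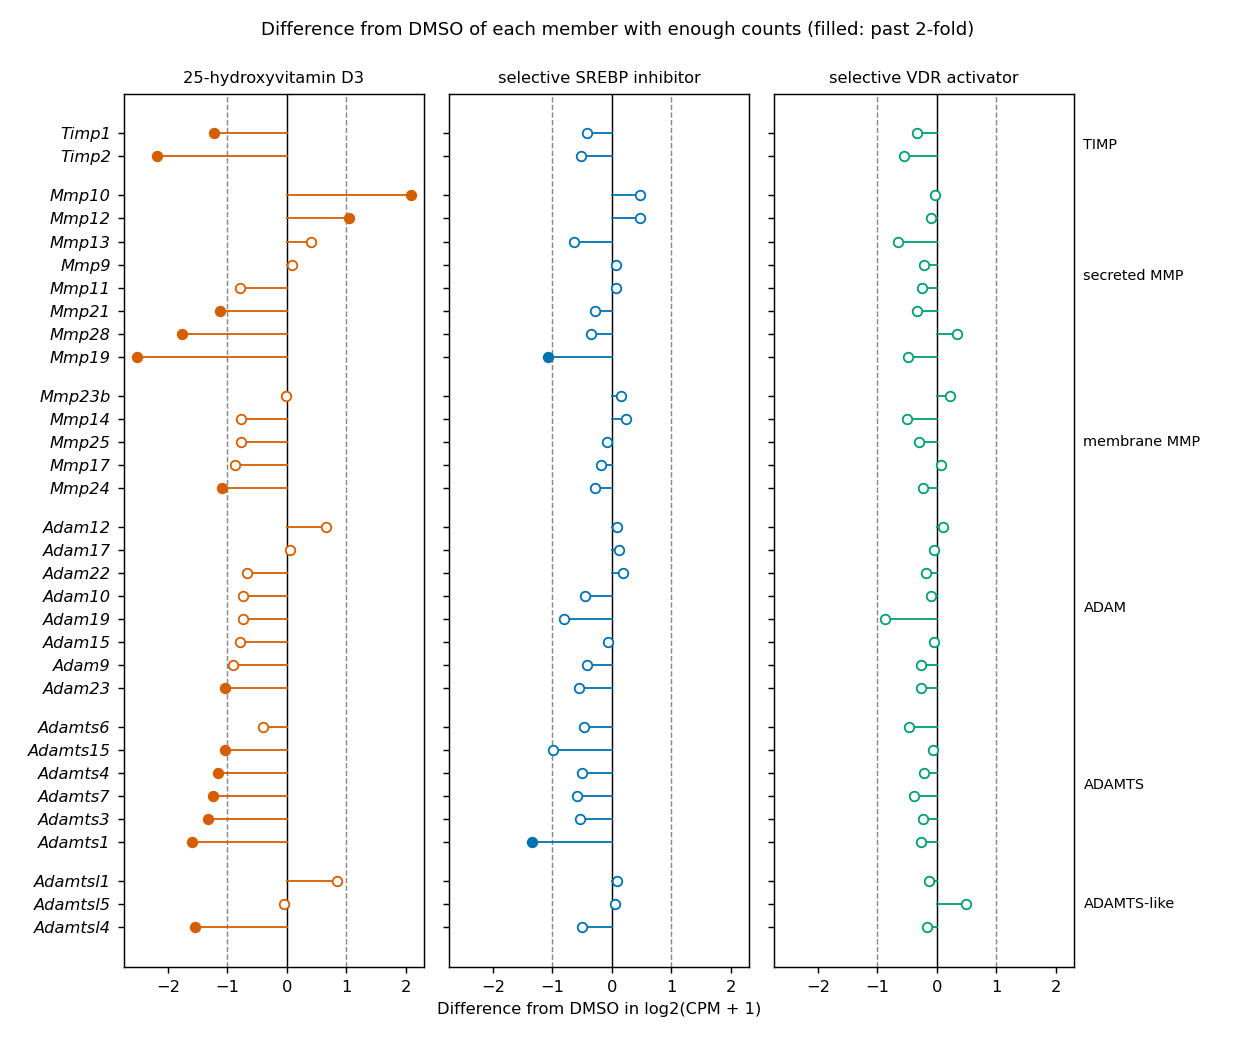
Difference from DMSO in log2(CPM + 1) of each of the 32 genes that reached 1 CPM and 10 counts in DMSO or in a treated library, in 1 panel per treatment. Filled points are past 2-fold (dashed lines at -1 and 1), which holds for 15 genes with 25-hydroxyvitamin D3, 2 with the SREBP inhibitor and 0 with the VDR activator.

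Both expressed TIMPs were lower with 25-hydroxyvitamin D3. Timp2, which blocks MMPs and also helps MMP14 to activate the MMP2 precursor, was at 735 CPM in DMSO, 161 with 25-hydroxyvitamin D3, 513 with the SREBP inhibitor and 501 with the VDR activator. Timp2 was therefore 4.55-fold lower than DMSO with 25-hydroxyvitamin D3 (95% interval 4.38 to 4.73), 1.43-fold below it with the SREBP inhibitor (1.40 to 1.47) and 1.47-fold below it with the VDR activator (1.43 to 1.5). Timp1, a secreted inhibitor of most MMPs, was at 107 CPM in DMSO, 45.0 with 25-hydroxyvitamin D3, 79.5 with the SREBP inhibitor and 84.7 with the VDR activator. The 25-hydroxyvitamin D3 library was thus the low one for both, with Timp1 2.37-fold below DMSO (2.19 to 2.56). Per length, Timp2 stood above Timp1 in 3 libraries and below it with 25-hydroxyvitamin D3, where the FPKM were 41.2 and 48.1.

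Among secreted MMPs that were lower, Mmp19, a protease of basement membrane components, had the largest difference on the log2(CPM + 1) scale and in the CPM ratio. Its level was 145 CPM in DMSO, 24.6 with 25-hydroxyvitamin D3, 68.2 with the SREBP inhibitor and 104 with the VDR activator, so that all 3 treated libraries lay below the control. It was 5.91-fold lower with 25-hydroxyvitamin D3 (5.37 to 6.50). Mmp28, or epilysin, was at 20.1 CPM in DMSO, 5.20 with 25-hydroxyvitamin D3, 15.6 with the SREBP inhibitor and 25.5 with the VDR activator. With 25-hydroxyvitamin D3 it was 3.86-fold lower (3.12 to 4.82), while the VDR activator library was the high one, 1.27-fold above DMSO (1.12 to 1.44). Mmp21, known for its role in left-right patterning of the vertebrate embryo, rested on 58, 14, 47 and 47 counts in the order DMSO, 25-hydroxyvitamin D3, SREBP inhibitor and VDR activator. Mmp21 was 3.89-fold lower with 25-hydroxyvitamin D3 (2.14 to 7.55).

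The gelatinase Mmp9 did not share this difference. It was at 120.3 CPM in DMSO, 128 with 25-hydroxyvitamin D3, 126 with the SREBP inhibitor and 104 with the VDR activator. Its difference from DMSO with 25-hydroxyvitamin D3 was 0.09 log2. Mmp11, or stromelysin-3, which furin activates inside the cell, was at 48.5 CPM in DMSO, 27.8 with 25-hydroxyvitamin D3, 50.9 with the SREBP inhibitor and 40.5 with the VDR activator. At -0.78 log2 it stayed short of the limit with 25-hydroxyvitamin D3.

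The 2 genes that were higher with 25-hydroxyvitamin D3 were Mmp10 and Mmp12, both under 1.5 CPM in the control. Mmp10, or stromelysin-2, which cuts many matrix proteins and activates other MMP precursors, had 4 counts in DMSO, 82 with 25-hydroxyvitamin D3, 15 with the SREBP inhibitor and 4 with the VDR activator, or 0.184, 4.02, 0.646 and 0.164 CPM. The ratio to DMSO was 21.8 with 25-hydroxyvitamin D3 (8.21 to 82.04) and 3.51 with the SREBP inhibitor (1.12 to 14.5). Mmp12, the macrophage elastase, had 32, 84, 57 and 32 counts in the same order, or 1.47, 4.12, 2.46 and 1.31 CPM. Against DMSO this was a ratio of 2.80 for 25-hydroxyvitamin D3 (1.84 to 4.34) and 1.67 for the SREBP inhibitor (1.06 to 2.66). Both genes thus stood above DMSO with 25-hydroxyvitamin D3 and with the SREBP inhibitor, and the VDR activator library was close to DMSO. With the SREBP inhibitor Mmp10 did not meet the minimum, and Mmp12 was short of the limit at 0.48 log2. The Mmp12 call was lost at 0.98 log2 with libraries scaled to the same total count, and both calls were lost with a minimum of 5 CPM, which neither gene reached.

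Names and neighbours were looked up in RefSeq genes (assembly CriGri-PICRH-1.0), where 64 of the 65 gene identifiers were found. Mmp13, Mmp12, Mmp3, Mmp1, Mmp10, Mmp8, Mmp27, Mmp20 and Mmp7 follow each other there with 1 other gene in between, LOC100759664. Of these neighbours Mmp10 and Mmp12 were expressed, and Mmp1, Mmp7, Mmp20 and Mmp27 had no count. Mmp10 reached the mean of 1 CPM only through the 25-hydroxyvitamin D3 library, at 4.02 CPM against 0.164 to 0.646 in the others. Mmp13, or collagenase-3, had 25 counts in DMSO, 38 with 25-hydroxyvitamin D3, 9 with the SREBP inhibitor and 9 with the VDR activator. Its ratio to DMSO had an interval that included 1 with 25-hydroxyvitamin D3 (0.952 to 2.80), and it was 2.97-fold lower with the SREBP inhibitor (1.34 to 7.23) and 3.13-fold lower with the VDR activator (1.41 to 7.61), without passing the limit on the log2(CPM + 1) scale. Mmp8 had at most 1 count in a library. The row that carries the Mmp3 identifier is labelled stromelysin-1-like and held 30.5, 17, 22 and 20.5 estimated counts in DMSO, 25-hydroxyvitamin D3, SREBP inhibitor and VDR activator. Mmp3 and Mmp10 are close relatives and their estimated counts were not all whole, so reads may be divided between them.

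**Figure D3:**
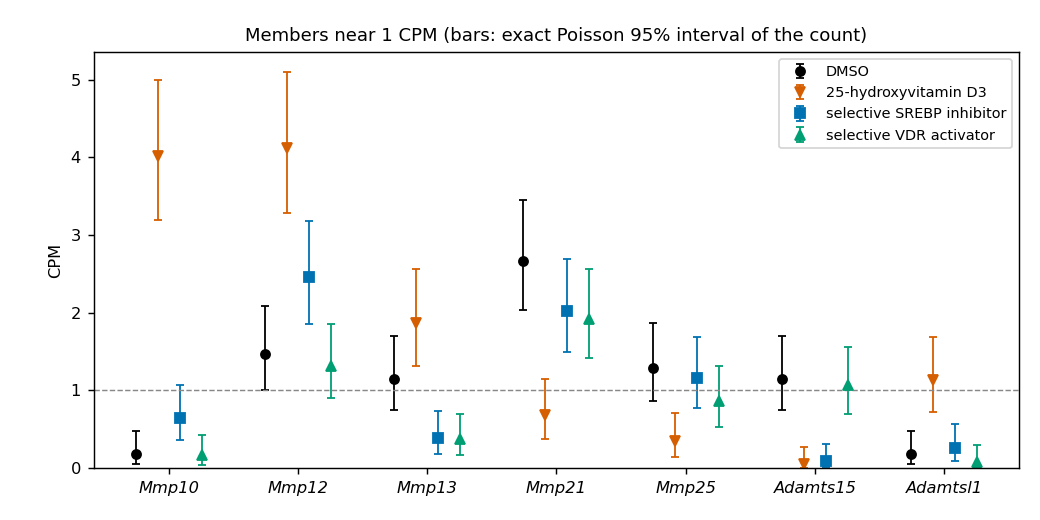
Level in CPM of 7 genes near 1 CPM (dashed line) in the 4 libraries, with exact Poisson 95% intervals of the counts as bars. Mmp10 and Mmp12 stood at 4.02 and 4.12 CPM with 25-hydroxyvitamin D3, and Adamts15 at 1.15 CPM (DMSO) and 1.06 CPM (VDR activator) against 0.0491 and 0.0862 CPM in the other libraries.

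Membrane MMPs were led by Mmp14, the membrane-bound collagenase that is known to activate MMP2 and to drive cell invasion. It was at 186 CPM in DMSO, 109 with 25-hydroxyvitamin D3, 219 with the SREBP inhibitor and 131 with the VDR activator. The SREBP inhibitor library was the high one, 1.18-fold above DMSO (1.13 to 1.23), and the others were lower, by 1.71-fold with 25-hydroxyvitamin D3 (1.62 to 1.80) and 1.41-fold with the VDR activator (1.35 to 1.48). The FPKM of Timp2 divided by that of Mmp14, a ratio chosen after the values were seen, was 2.17 in DMSO, 0.815 with 25-hydroxyvitamin D3, 1.29 with the SREBP inhibitor and 2.09 with the VDR activator. Mmp24, a membrane MMP known from neurons, was at 15.0, 6.57, 12.2 and 12.7 CPM in DMSO, 25-hydroxyvitamin D3, SREBP inhibitor and VDR activator. It was the 1 membrane MMP past the limit, 2.28-fold lower with 25-hydroxyvitamin D3 (1.86 to 2.81). Mmp17, which is held by a lipid anchor, lay just outside it at -0.88 log2, with 7.69 CPM in DMSO and 3.73 with 25-hydroxyvitamin D3. Mmp25, also lipid-anchored, had 28 counts in DMSO, 7 with 25-hydroxyvitamin D3, 27 with the SREBP inhibitor and 21 with the VDR activator. Mmp23b was between 8.54 and 10.2 CPM in all 4 libraries, with a close relative on another row (matrix metalloproteinase-23-like, 24.25 to 41.25 estimated counts) that may share its reads.

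The proteases among the ADAMs were lower with 25-hydroxyvitamin D3 by less than 2-fold, other than Adam17 and Adam12. Of 6 expressed, none passed the limit, and their median was -0.73 log2. Adam10, which cuts Notch and the amyloid precursor protein, was at 348 CPM in DMSO, 209 with 25-hydroxyvitamin D3, 254 with the SREBP inhibitor and 324 with the VDR activator, or 1.66-fold (1.60 to 1.73), 1.37-fold (1.32 to 1.41) and 1.07-fold (1.04 to 1.11) lower. Adam9 was at 387, 207, 289.5 and 323 CPM in the same order. At -0.90 log2 with 25-hydroxyvitamin D3 it lay just short of the limit. Adam15 was at 199 CPM in DMSO, 115 with 25-hydroxyvitamin D3, 189.9 with the SREBP inhibitor and 193 with the VDR activator, so the 25-hydroxyvitamin D3 library alone stood apart.

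Adam17, the main sheddase of tumour necrosis factor and of EGF receptor ligands, was the least variable of the ADAMs. It was at 139 CPM in DMSO, 144 with 25-hydroxyvitamin D3, 152 with the SREBP inhibitor and 135 with the VDR activator. The interval of its ratio to DMSO included 1 with 25-hydroxyvitamin D3 (0.985 to 1.09) and with the VDR activator (0.922 to 1.02). Adam12, an ADAM of muscle and mesenchyme, was highest with 25-hydroxyvitamin D3, at 29.3 CPM against 18.3 in DMSO, 19.6 with the SREBP inhibitor and 19.8 with the VDR activator. That is 1.60-fold above DMSO (1.41 to 1.83). Adam19, known to process neuregulins, was below DMSO in all 3 treated libraries. It was at 196 CPM in DMSO, 117 with 25-hydroxyvitamin D3, 112 with the SREBP inhibitor and 106 with the VDR activator, or 1.67-fold (1.59 to 1.76), 1.75-fold (1.66 to 1.83) and 1.84-fold (1.76 to 1.94) lower.

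Adam22 and Adam23 encode ADAMs without protease activity that are known as receptors of the LGI proteins in the brain. Adam23 was at 223 CPM in DMSO, 107.8 with 25-hydroxyvitamin D3, 153 with the SREBP inhibitor and 186 with the VDR activator. It was the only ADAM past the limit, at -1.04 log2 or 2.07-fold lower with 25-hydroxyvitamin D3 (1.97 to 2.18). Adam22 was at 152 CPM in DMSO, 95.5 with 25-hydroxyvitamin D3, 174 with the SREBP inhibitor and 134 with the VDR activator, so that the SREBP inhibitor library was the highest and the 25-hydroxyvitamin D3 library the lowest.

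ADAMTS genes were lower with 25-hydroxyvitamin D3 in 5 of the 6 that met the minimum. Adamts15, counted among the 5, met it through the DMSO library alone and was not among the expressed genes. Adamts1, a protease of versican and aggrecan, was at 41.9 CPM in DMSO, 13.1 with 25-hydroxyvitamin D3, 16.0 with the SREBP inhibitor and 34.7 with the VDR activator. Adamts1 was 3.19-fold lower with 25-hydroxyvitamin D3 (2.78 to 3.67). Adamts4, another proteoglycan protease, was at 7.88, 2.99, 5.30 and 6.63 CPM in DMSO, 25-hydroxyvitamin D3, SREBP inhibitor and VDR activator, or 2.63-fold lower with 25-hydroxyvitamin D3 (1.95 to 3.59). Adamts15, of the same group, had 1 count with 25-hydroxyvitamin D3 and 2 with the SREBP inhibitor, against 25 in DMSO and 26 with the VDR activator. Its ratio of DMSO to treated was 23.5 with 25-hydroxyvitamin D3 (3.84 to 964) and 13.4 with the SREBP inhibitor (3.33 to 116).

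Adamts7, which cuts the cartilage oligomeric matrix protein, was the most abundant ADAMTS gene. It was at 137 CPM in DMSO, 57.3 with 25-hydroxyvitamin D3, 91.2 with the SREBP inhibitor and 106 with the VDR activator, or 2.40-fold lower with 25-hydroxyvitamin D3 (2.24 to 2.57). Adamts3, a procollagen N-propeptidase, was at 14.4, 5.15, 9.61 and 12.1 CPM in the same order and 2.80-fold lower with 25-hydroxyvitamin D3 (2.24 to 3.53). Both genes were highest in DMSO and lowest with 25-hydroxyvitamin D3. A row labelled ADAMTS 3-like held 27, 9, 28 and 28 estimated counts and may share reads with Adamts3. Adamts6 was at 28.3 CPM in DMSO and 20.2 to 21.2 in the treated libraries. The rest of the family, from Adamts2 to Adamts20, had at most 3 counts in any library.

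ADAMTS-like proteins bind microfibrils or other matrix components. Adamtsl4, which binds fibrillin, was at 44.0 CPM in DMSO, 14.5 with 25-hydroxyvitamin D3, 30.9 with the SREBP inhibitor and 39.2 with the VDR activator. Adamtsl4 was 3.03-fold lower with 25-hydroxyvitamin D3 (2.66 to 3.47). Adamtsl5 differed from it, with 41.0 CPM in DMSO, 39.9 with 25-hydroxyvitamin D3, 42.8 with the SREBP inhibitor and 58.4 with the VDR activator, where it was 1.42-fold higher (1.31 to 1.55). Adamtsl1 had 4 counts in DMSO, 23 with 25-hydroxyvitamin D3, 6 with the SREBP inhibitor and 2 with the VDR activator, a difference of 0.85 log2 for 25-hydroxyvitamin D3, short of the limit. The CPM ratio was 6.12 (2.09 to 24.4), and with a pseudocount of 0.1 CPM Adamtsl1 was called higher, and Mmp17 and Mmp25 lower, for 3 higher and 15 lower in all.

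With the selective SREBP inhibitor against DMSO, 2 of the 30 genes that met the minimum were at least 2-fold lower, or 6.67%, against 1.4% of all 11449 genes, and 0 were higher, against 1.95%. In both directions together 3.35% of all genes passed. Adamts1 was 2.62-fold lower (2.32 to 2.97) and Mmp19 2.13-fold lower (2.00 to 2.26), from the levels given above. Adamts15 lay just outside at -0.99 log2 and Adam19 followed at -0.80. The median of the 28 expressed genes was -0.31 log2, against 0.02 for all expressed genes, and 18 of the 28, or 64.3%, were below 0, against 48.0%. ADAMTS genes had the lowest class median, -0.54 log2 with 5 of 5 expressed below 0, and both TIMPs were below 0 too, while secreted MMPs had a median of 0.07 and membrane MMPs of -0.01. With a pseudocount of 0.1 CPM 4 genes were called lower, the added ones being Mmp13 and Adamts15.

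With the selective VDR activator against DMSO none of the 30 genes that met the minimum passed the 2-fold limit in either direction, where 0.184% of all 11431 genes were higher and 0.324% lower, or 0.507% together. The median of the 28 expressed genes was -0.22 log2, against 0.01 for all expressed genes, and 23 of the 28 were below 0, against 47.4% of all. The lowest of the 28 was Adam19 at -0.88 log2, followed by Timp2 at -0.55 and Mmp14 at -0.49. The highest were Adamtsl5 at 0.50 and Mmp28 at 0.33. Mmp13, which met the minimum but was not among the 28, was at -0.65. With a pseudocount of 0.1 CPM Mmp13 was called lower. The 3 comparisons share the DMSO library, which was the highest of the 4 for 16 of the 28 genes, or 57.1%, against 28.2% of all expressed genes.

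**Figure D4:**
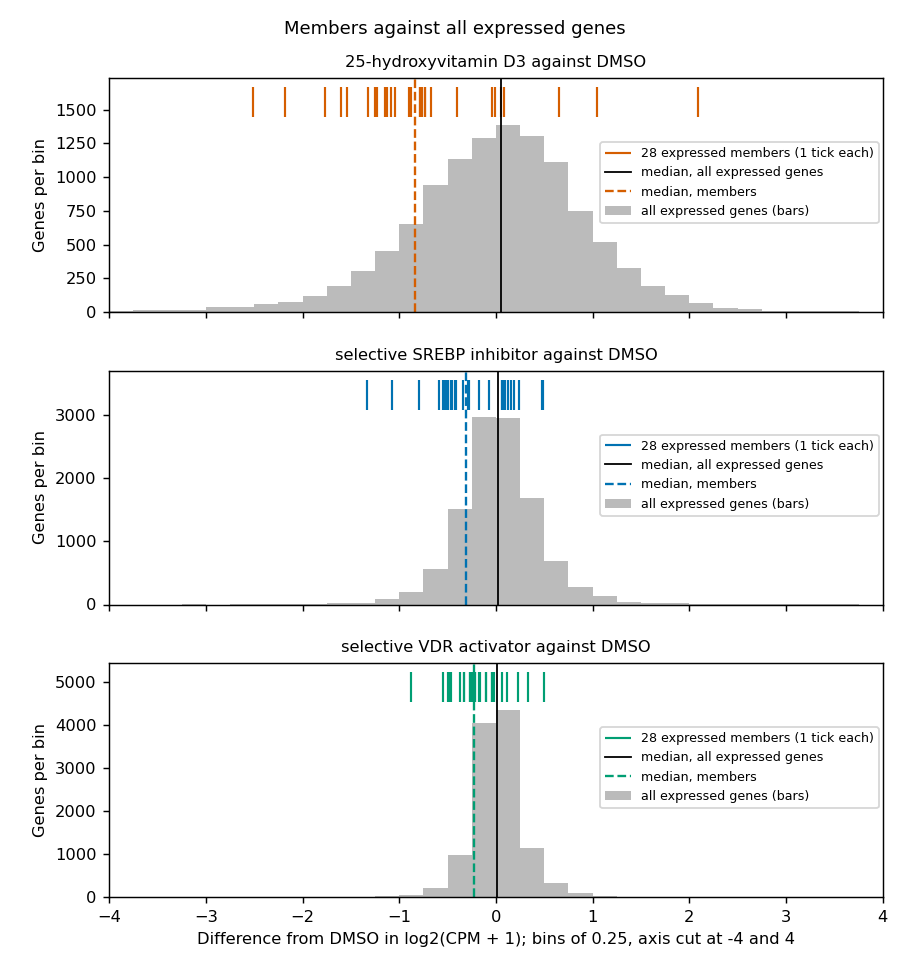
Distribution of the difference from DMSO in log2(CPM + 1) over all 11233 expressed genes (grey bars, bins of 0.25) and the 28 expressed protease and inhibitor genes (ticks), for each treatment. The medians of the 28 (dashed) lie at -0.83, -0.31 and -0.22, below those of all expressed genes (solid) at 0.05, 0.02 and 0.01, from the top panel to the lowest.

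Partners and substrates of these proteases were followed in 6 lists, whose counts with 25-hydroxyvitamin D3 stand beside 12.2% lower and 11.6% higher among all genes that met the minimum. Among 11 measured genes of MMP activation and cell surface binding, 3 were 2-fold lower with 25-hydroxyvitamin D3 (27.3%) and 1 was higher (9.09%, near the share of all genes), with a median of -0.76 log2. The lower ones were Cav1 (caveolin), Reck, a membrane-anchored MMP inhibitor at 26.5 CPM in DMSO and 11.2 with 25-hydroxyvitamin D3, and Lrp1, an endocytic receptor that clears MMPs and TIMPs, at 815 and 381 CPM. Cd44, a hyaluronan receptor that docks MMPs at the surface, was the higher one, at 274 CPM in DMSO, 563 with 25-hydroxyvitamin D3, 326 with the SREBP inhibitor and 169 with the VDR activator. None of the 11 passed the limit with the SREBP inhibitor or the VDR activator. Of all genes that met the minimum 3.35% and 0.507% passed it there, and for so few genes none is near these shares.

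Of 7 measured genes of the plasminogen activator system, 3 were lower (42.9%, against 12.2% of all genes) and 1 higher (14.3%, against 11.6%) with 25-hydroxyvitamin D3, with a median of -0.64 log2. S100a10, a plasminogen receptor subunit, was 6.59-fold lower (6.03 to 7.21), Plgrkt 2.63-fold and the tissue plasminogen activator gene Plat 2.22-fold, while the urokinase receptor gene Plaur was at 14.7 CPM in DMSO and 32.1 with 25-hydroxyvitamin D3. S100a10 was also lower with the SREBP inhibitor, at 78.5 against 182 CPM. Among 9 measured partners of ADAM10 and ADAM17, 2 were lower (22.2%) and 1 higher (11.1%) with 25-hydroxyvitamin D3, with a median of -0.42 log2. For so few genes these counts are near the shares of all genes. The tetraspanin gene Tspan17, whose product guides ADAM10, was at 77.5 CPM in DMSO and 17.5 with 25-hydroxyvitamin D3. The iRhom genes, which are needed to bring ADAM17 to the surface, went in opposite directions, with Rhbdf1 at 98.9 CPM in DMSO and 41.9 with 25-hydroxyvitamin D3, and Rhbdf2 at 46.0 and 102 CPM.

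Genes of shed growth factors and receptors went both ways with 25-hydroxyvitamin D3, with 4 lower and 3 higher of 10 measured (median -0.46), against 12.2% lower and 11.6% higher of all genes. Higher were the Notch ligand gene Jag1 at 3.06-fold, Hbegf at 2.60-fold and Areg at 2.26-fold, and lower were Notch1 at 3.18-fold (2.69 to 3.77), Tnfrsf1a at 2.67-fold, Met at 2.66-fold and Ereg at 2.35-fold. Other enzymes that cut matrix, hyaluronidases among them, and protease enhancers were lower in 4 of 11 (36.4%) and higher in 0 (median -0.66). The lower ones were the hyaluronidase gene Hyal1 at 12.1-fold (8.36 to 17.98), Ctsk at 5.25-fold, the procollagen C-proteinase gene Bmp1 at 2.64-fold and its enhancer gene Pcolce at 2.58-fold. Among 10 measured matrix substrates 5 were lower and 0 higher (median -0.93), among them Col3a1, Dcn, Sparc and Lum. Lum met the minimum through DMSO alone. With the SREBP inhibitor the genes past the limit in these 3 lists were Hyal1 and Col3a1, both lower, and with the VDR activator Thbs1, lower. No other measured gene of the 6 lists passed the limit on the log2(CPM + 1) scale in these libraries.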

How the data were processed

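The authors deposited 1 table with estimated counts and FPKM per gene row. Of tools, bcl2fastq and TopHat2 are listed in the submitters' processing notes. How reads were counted, on which genome build and whether by strand is not given in the sources used here. No coordinates are therefore printed. Estimated counts were rounded after adding up the rows that carry the same gene. CPM used library sizes adjusted by the trimmed mean of M values over the whole table (edgeR 4.0.16, R 4.3.3), with 20.4 to 24.4 counts per CPM. FPKM per gene is that of its row with the most counts. Ratios are of CPM, with exact Clopper-Pearson intervals derived from the counts, and levels have exact Poisson intervals. Reads without molecular identifiers are not independent molecules, so these can be too narrow. Genes past the limit in any comparison, the 10 with the highest mean FPKM, the TIMPs and Mmp2, Mmp9, Mmp14, Adam10 and Adam17 were named by rule, and others were named after their values were seen. Up to 4 genes per partner list were named by size of difference, and the remaining called ones by completeness. The members and lists were chosen with earlier results of these data known. ADAMs were divided by protease activity from general knowledge. Rules were tested on simulated counts. Alternatives concern scaling (DESeq2 1.42.0 size factors among them), pseudocount, minimum, limit and multiple rows. One gene of the substrate list is counted but not reported here by name.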

Additional observations from a re-analysis of the deposited data

How the results depend on the processing

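No paired analysis was possible because each treatment has 1 library. With 25-hydroxyvitamin D3 the 2 higher genes became 1 with equal total counts, 1 with totals without mitochondrial-encoded genes and 1 with the FPKM library totals, 0 with a pseudocount of 5 CPM, 0 with a minimum of 5 CPM and 4 with a 1.5-fold limit. The 13 lower genes became 8 with a pseudocount of 5 CPM and 22 with a 1.5-fold limit. With the SREBP inhibitor the 2 lower genes became 4 with a pseudocount of 0.1 CPM and 6 with a 1.5-fold limit. With the VDR activator the 0 lower genes became 1 with a pseudocount of 0.1 CPM and 2 with a 1.5-fold limit. The other planned settings kept each count within 1.5 times, and no called gene changed sign under the settings run. Without a minimum, 48 genes had at least 1 count, in place of 28 expressed. Totals without mitochondrial-encoded genes moved the median of all expressed genes with 25-hydroxyvitamin D3 from 0.05 to -0.12 log2 and that of the 28 from -0.83 to -0.997, and 34.4% of the genes called in the whole table were then higher, against 48.7%. Counting error limits Mmp10, Mmp12, Mmp13, Mmp21, Mmp25, Adamts15 and Adamtsl1, which reached at most 84 counts.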

Other observations

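Some relatives of these genes stand under a LOC identifier and were outside the rule by symbol. The table holds 27 such rows described as an ADAM, ADAMTS, ADAMTS-like or MMP gene, of which 10 had at least 1 count in a library. The highest estimated count among them was 41.25. The 3 rows described as ADAM 1a or 1a-like, genes known from sperm of the mouse, divided whole numbers of reads among them, and were summed after their values were seen. They held 46 counts in DMSO, 4 with 25-hydroxyvitamin D3, 27 with the SREBP inhibitor and 46 with the VDR activator. The sum was 10.8-fold lower than DMSO with 25-hydroxyvitamin D3 (3.94 to 41.3), 1.82-fold lower with the SREBP inhibitor (1.11 to 3.05), and its interval included 1 with the VDR activator.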
